A study of Mus musculus with 24 samples.

Results

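The cornified envelope and epidermal differentiation genes were followed in mouse skin across 24 RNA-seq libraries, 1 per mouse. Members were taken by name from the table of FPKM values (fragments per kilobase of transcript, scaled to the library's total fragments): every gene whose symbol begins with Sprr or Lce, plus 20 further genes of the envelope, its cross-linking, the suprabasal keratins and the cell junctions. Of 18892 genes in the table, 55 matched: 14 Sprr, 21 Lce and the 20 others. At least 1 FPKM in at least 4 of the 24 libraries was reached by 43 of the 55 members, and by 13039 of all genes. These 43 comprised 6 Sprr, 17 Lce (14 of them Lce1) and all 20 others. The 12 left out were Lce3a, Lce3b, Lce3e, Lce3f, Sprr2a1, Sprr2a2, Sprr2a3, Sprr2b, Sprr2e, Sprr2i, Sprr2k and Sprr3.

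The study had 6 groups of 4 mice. Control mice received saline by daily injection and solvent on the skin. The group labelled model, called the DHT group here, was injected daily with dihydrotestosterone, an androgen, and was given the same solvent. The group labelled treat, called the DHT + HLX group here, was injected with dihydrotestosterone and received an extract of HLX (Hanlianxiang, a formula of traditional Chinese medicine) on the skin. In each of these treatments 4 mice were killed at day 10 and the other 4 at day 15. Strain, sex and age of the mice were not given in the sources used here, and dihydrotestosterone was given by injection to every mouse of the DHT and DHT + HLX groups, so HLX was not tested without it. Whole skin was sequenced, so fewer keratinocytes and less RNA per keratinocyte cannot be told apart.

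The cornified envelope is the insoluble protein shell that replaces the plasma membrane of a keratinocyte as it becomes a dead cell of the skin surface. Keratinocytes leaving the basal layer first switch to the keratins Krt1 and Krt10, then make filaggrin-type proteins that bundle them, and lay down involucrin, envoplakin and periplakin under the membrane. Transglutaminases then cross-link small proline-rich (Sprr) and late cornified envelope (Lce) proteins onto this scaffold, while proteases process filaggrin and open the junctions. Several of these proteins are also made in the hair follicle, whose inner root sheath and cuticle cornify as well.

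The Sprr and Lce genes lie beside each other on chromosome 3, and 39 of the 55 members mapped there, 27 of them past the FPKM filter. RefSeq promoters (GRCm38.p6) were available for 36 of the 43 genes, as 38 entries. The 250 bases before the start were searched for TGANTCA, the AP-1 recognition sequence, which reads the same on both strands, and for TATAAA on the gene's own strand, and matches of the 2 motifs did not overlap. TGANTCA was present in 5 of 6 Sprr promoters, 0 of 13 Lce1 promoters and 0 of 2 Lce3 promoters, against 6.7% of all 32851 promoters in the table. Over all members it was in 8 of 38 entries. These included Flg and Flg2, which were not called under DHT. Cnfn, Tgm1, Tgm3, Cdsn and Asprv1, which were called lower, did not have it. TATAAA was present in 5 of 6 Sprr and 2 of 13 Lce1 promoters, against 7.6% of all. The exception among the Sprr genes was Sprr4, which had neither. AGAACA, the core of steroid receptor elements, was in 1 of 6 Sprr, 2 of 13 Lce1 and both Lce3 promoters, against 16.1% of all. CACCC was in 2 of 6 Sprr and 5 of 13 Lce1 promoters, against 52.0% of all, both searched on both strands. A match describes the letters in this window and was not tested for function. The promoters below belong to Sprr2h, Sprr1b and Sprr1a, whose levels differed between treatments, to Lce3c, which differed between control and DHT at day 15 without either motif, and to Lce1a1, a Lce1 gene that passed no treatment test. Capitals mark TGANTCA and TATAAA, of which the last 2 promoters hold none.
Sprr2h (chr3:92385435-92385684, plus strand): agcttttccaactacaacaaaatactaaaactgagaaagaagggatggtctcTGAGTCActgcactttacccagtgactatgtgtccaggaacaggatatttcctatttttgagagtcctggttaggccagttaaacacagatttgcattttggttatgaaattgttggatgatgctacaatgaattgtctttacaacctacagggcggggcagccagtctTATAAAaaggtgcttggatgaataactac
Sprr1b (chr3:92438780-92439029, minus strand): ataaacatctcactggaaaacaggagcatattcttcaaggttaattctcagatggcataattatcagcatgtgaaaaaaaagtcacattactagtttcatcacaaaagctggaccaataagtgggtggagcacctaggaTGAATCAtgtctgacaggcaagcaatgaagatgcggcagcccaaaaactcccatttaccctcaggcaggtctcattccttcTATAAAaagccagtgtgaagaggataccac
Sprr1a (chr3:92485882-92486131, minus strand): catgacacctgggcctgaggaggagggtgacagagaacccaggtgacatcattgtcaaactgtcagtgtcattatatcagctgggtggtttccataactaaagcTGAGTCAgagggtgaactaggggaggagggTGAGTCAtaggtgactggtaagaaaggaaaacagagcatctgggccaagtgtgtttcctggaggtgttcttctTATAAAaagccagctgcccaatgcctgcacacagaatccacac
Lce3c (chr3:92944236-92944485, plus strand): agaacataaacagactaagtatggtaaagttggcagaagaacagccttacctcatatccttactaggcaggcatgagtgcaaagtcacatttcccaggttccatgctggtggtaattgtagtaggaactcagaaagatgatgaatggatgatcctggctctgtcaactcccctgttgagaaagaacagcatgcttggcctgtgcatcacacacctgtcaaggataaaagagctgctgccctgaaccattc
Lce1a1 (chr3:92648308-92648557, minus strand): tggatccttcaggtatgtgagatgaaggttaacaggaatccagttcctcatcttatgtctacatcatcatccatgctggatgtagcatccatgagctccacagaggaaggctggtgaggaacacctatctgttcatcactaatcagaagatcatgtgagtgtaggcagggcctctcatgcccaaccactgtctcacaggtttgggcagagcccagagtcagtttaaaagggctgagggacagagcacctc

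Libraries held 37048896 to 41117262 reads as recovered from the FPKM values. In every group of 4 the libraries correlated at r of 0.928 or more across genes, and the lowest values belonged to the third mouse at day 15 in the DHT group (0.943) and in the DHT + HLX group (0.928). Transcripts of the kidney were present in all 8 control and DHT libraries of day 10, where 6 kidney markers summed to 17.1 to 28.6 FPKM, mostly Kap. They summed to at most 0.17 FPKM in the other 16 libraries, where Kap was listed at 0. Y-linked transcripts (Ddx3y, Uty, Eif2s3y and Kdm5d) summed to 22.3 to 33.4 FPKM in 4 DHT + HLX libraries, mouse 3 of day 10 and mice 1, 2 and 4 of day 15, and to 39.2 to 50.6 FPKM in the other 20. The sex of the mice was not given, so whether each of these 4 libraries holds RNA of a single male mouse could not be checked, and this bears on every DHT + HLX value of day 15. The kidney signal separates day 10 control and DHT mice from the DHT + HLX mice of day 10 and from all mice of day 15, so it cannot be told apart from those comparisons. The labelled tissue carried its own markers: 8 basal epidermal genes summed to 722 to 1680 FPKM in every library.

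Differences were tested with limma on log2(FPKM + 1) over all 24 libraries, with Benjamini-Hochberg adjustment over the 13039 genes, and were called at an adjusted p under 0.05. Folds of low genes are understated on this scale. The 14 Lce1 genes shared at most 13.5% of their transcript 75-base words with other genes. Lce3c shared 28.0%, Lce3d 38.6% and Dsg1a 29.2% (with Dsg1b), and the values of these 3 genes are uncertain for that reason.

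Expression per length differed widely among the members. Sprr1a, a small proline-rich envelope protein, had the highest mean over 24 libraries, at 738 FPKM. Krt10 followed at 439 FPKM, Asprv1, the protease that processes filaggrin, at 247, Krt77 at 192 and Sprr4 at 189 FPKM. Cnfn (cornifelin, an envelope component) reached 132 and Dsg1a (a desmosomal cadherin) 122 FPKM. The Lce1 genes ranged lower: Lce1m, the highest, had a mean of 36.5 FPKM. Sprr2h was the only Sprr2 gene above a mean of 1 FPKM, at 16.6. At the edge of the filter, Sprr2d passed in 4 libraries and Sprr2f in 5, while Lce3a, Sprr2i and Sprr2e reached 1 FPKM in 3.

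The first question was whether dihydrotestosterone altered these genes. At day 10, 12 members were lower in the DHT group than in control mice and none was higher, where 7.04% of all tested genes were lower and 6.79% higher. At day 15, 17 members were lower and none higher, where 6.56% of all genes were lower and 4.23% higher. The median log2 difference of the 43 members was 0.04 at day 10 and -0.18 at day 15, and that of all genes -0.02 and -0.03. The 12 genes called lower at day 10 were also among the 17 of day 15: Sprr1a, Sprr1b, Sprr2h, Lce3d, Cnfn, Tgm1, Tgm3, Evpl, Ppl, Cdsn, Asprv1 and Krt80. Ivl, Lce3c, Lce6a, Sprr2f and Tgm5 were called lower at day 15 and not at day 10. Sprr2f reached 1 FPKM in 5 libraries, among them control mice of day 15 at 1.64, 1.63 and 1.65 FPKM. Without the control mice of day 15 it was at 1 FPKM in fewer than the 4 libraries required. It thus entered the test through the group where it is high, and its call, counted in the 17, supports no statement on the members. None of the 14 Lce1 genes, and none of Krt1, Krt2, Krt10, Krt77, Flg, Flg2 and Hrnr, was called at either day. No member differed in its DHT effect between the days (limma, 0 called, smallest adjusted p of 1, 2 members at an unadjusted p under 0.05), also with voom on recovered reads, so the 5 later calls are not shown to be particular to day 15.

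Among the precursors cross-linked into the envelope, Sprr2h differed most. At day 10 its level was 12.4, 6.63, 13 and 13.5 FPKM in the 4 control mice and 3.67, 2.44, 2.23 and 3.58 FPKM in the DHT mice. At day 15 the control mice had 42.6, 41.1, 32.7 and 54.4 FPKM and the DHT mice 8.77, 9.02, 16.7 and 9.74 FPKM. All DHT mice lay below all control mice at both days. The log2 difference was -1.61 (SE 0.23, adjusted p = 0.00063, limma) at day 10 and -1.88 (adjusted p = 0.000277) at day 15. Sprr1b, a close relative of Sprr1a that is made under stress, stood at 24.9, 15.3, 21.6 and 21.2 FPKM in control mice and at 10.3, 6.54, 5.54 and 9.4 FPKM in DHT mice of day 10. At day 15 it was 23.4, 24.5, 28.1 and 35.1 FPKM against 14.4, 9.82, 13.5 and 13.1 FPKM. Control and DHT mice again did not overlap, and the log2 differences were -1.30 (adjusted p = 0.0081, limma) and -1.07 (adjusted p = 0.025). Sprr1a was 941, 697, 821 and 935 FPKM in control mice and 626, 543, 451 and 534 FPKM in DHT mice of day 10, and at day 15 it was 801, 832, 831 and 954 FPKM against 762, 390, 484 and 568 FPKM. No DHT mouse reached the lowest control mouse of its day. Its log2 differences were -0.65 and -0.67 (adjusted p = 0.0125 and 0.0147, limma), but leaving out DHT mouse 3 of day 10 raised the day 10 value to an adjusted p of 0.0562. Sprr4 did not pass, with log2 differences of -0.72 (adjusted p = 0.0629) and -0.76 (adjusted p = 0.0572).

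Lce3c was 4.51, 4.34, 4.65 and 7.03 FPKM in control mice of day 15 and 1.31, 0.859, 1.13 and 0.854 FPKM in DHT mice, a log2 difference of -1.58 (SE 0.308, adjusted p = 0.00646, limma). At day 10 its level was 0.287 to 2.36 FPKM in control and 0 to 1.3 FPKM in DHT mice, and these overlapped. Lce3d fell by 0.96 and 1.04 on the log2 scale at the 2 days, from means of 1.71 and 2.72 FPKM. Cnfn was 177, 130, 151 and 173 FPKM in control mice and 109, 78.8, 65 and 76.6 FPKM in DHT mice of day 10. It was 179, 193, 179 and 194 FPKM in control and 142, 73.7, 88.4 and 105 FPKM in DHT mice of day 15. Control and DHT values were separate at both days, with log2 differences of -0.95 and -0.90 (adjusted p = 0.00211 and 0.00354, limma). Involucrin (Ivl) had means of 59.3 and 37.3 FPKM at day 10, with an adjusted p of 0.0512, and of 73 and 43.5 FPKM at day 15, with an adjusted p of 0.0333.

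Of the 3 transglutaminases, Tgm1 and Tgm3 were lower at day 10 and all 3 at day 15, and both plakins were lower at each day. Tgm3, a transglutaminase of epidermis and hair follicle, was 67.7, 46.5, 100 and 67.3 FPKM in control mice and 50.1, 27.2, 20.1 and 20.2 FPKM in DHT mice of day 10, a log2 difference of -1.28 (SE 0.24, adjusted p = 0.00363, limma). DHT mouse 1 was the one that overlapped the controls, and at day 15, with 64.5 to 79.6 against 33.1 to 52.1 FPKM, there was no overlap (log2 difference -0.78, adjusted p = 0.0429). Tgm1, the membrane-bound enzyme of the epidermis, fell by 0.41 and 0.49 on the log2 scale, and Tgm5 by 0.48 at day 15, with an adjusted p of 0.191 at day 10. The plakins Evpl and Ppl, which anchor the envelope to keratin filaments, fell by 0.57 and 0.50 at day 10 and by 0.66 and 0.55 at day 15. Corneodesmosin (Cdsn), which holds the outermost cells together, fell by 0.52 and 0.70. The desmosomal cadherins Dsg1a and Dsc1 had log2 differences of -0.24 and -0.47 at day 10 and -0.43 and -0.53 at day 15, none past the test. Asprv1 was 304, 290, 306 and 277 FPKM in control and 166, 211, 199 and 296 FPKM in DHT mice of day 10. At day 15 it was 250, 276, 266 and 281 FPKM against 199, 158, 156 and 172 FPKM, without overlap, and the log2 differences were -0.46 and -0.65 (adjusted p = 0.0227 and 0.00646, limma). Casp14, the caspase of the cornifying layers, had log2 differences of 0.10 and -0.18, with adjusted p of 0.815 and 0.674. Krt80, a keratin of differentiating epidermis and hair, was the 1 keratin of 5 that fell, from a mean of 131 to 86.8 FPKM at day 10 and from 140 to 93 FPKM at day 15.

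The Lce1 genes, the filaggrin family and the keratins other than Krt80 did not pass the test under DHT at either day. Krt10 was 462, 757, 330 and 400 FPKM in control and 416, 727, 697 and 955 FPKM in DHT mice of day 10. The groups overlapped widely, and the log2 difference was 0.53 (SE 0.327, adjusted p = 0.287, limma). Lce1a1 was 30.2, 64, 14.3 and 28.3 FPKM against 24.6, 54, 47.8 and 69.5 FPKM, a log2 difference of 0.60 (SE 0.437, adjusted p = 0.371). The 14 Lce1 genes had log2 differences of 0.37 to 0.93 at day 10 (median 0.64) and of -0.18 to 0.64 at day 15 (median 0.31), and none passed. Their SEs were 0.309 to 0.55, and a difference of this size was not detectable with these mice. Hrnr, the filaggrin relative hornerin, had differences of 0.67 and 0.53 (adjusted p = 0.175 and 0.281).

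**Figure D1:**
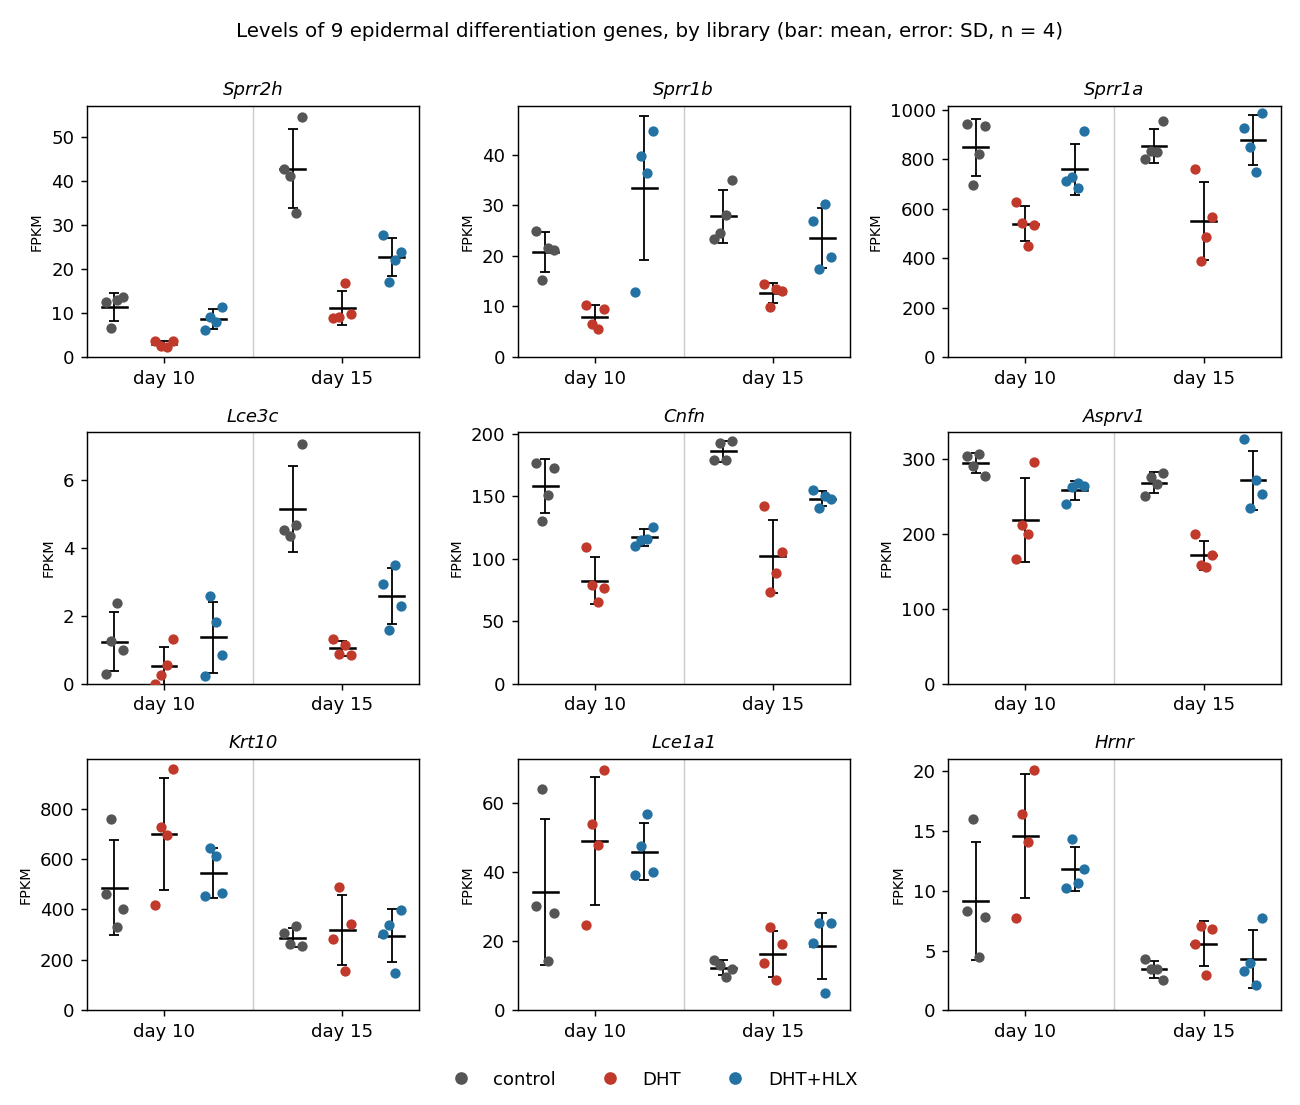
FPKM (vertical axes, from 0) of 9 genes in each of 24 libraries, by day, with control mice grey, DHT mice red and DHT + HLX mice blue. Horizontal bars are group means and error bars SDs of 4 mice. For Sprr2h the 4 DHT mice lie below the 4 control mice at both days, while Krt10, Lce1a1 and Hrnr overlap between treatments and lie lower at day 15.

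These counts, and those over all genes, rested on single mice to a degree. At day 10 the 12 calls became 6, 6 and 7 without control mouse 1, 3 or 4 and 6 and 5 without DHT mouse 2 or 3. Over all genes the 1803 calls became 1017, 612 and 877, and 681 and 536, in the same fits. At day 15 the 17 became 10, 9 and 6 without control mouse 2, 3 or 4 and 6 and 8 without DHT mouse 2 or 3. The 1408 calls over all genes became 500, 369 and 363, and 501 and 500. With the spread taken from control and DHT mice of day 15 alone the 17 became 10, of which 9 were lower and 1 higher, and the 1408 became 724. Sprr2h and Cnfn stayed called in every one of these fits.

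Hair follicle, macrophage and dermal markers moved in the same comparison. Of 7 inner root sheath markers, 7 were lower at day 10 and 6 at day 15. Their sum was 7840 to 13000 FPKM in control and 5110 to 9010 FPKM in DHT mice of day 10, and 9870 to 12800 against 5620 to 9970 FPKM at day 15. Of 9 hair shaft keratins, 8 were lower at day 10, with sums of 4110 to 7380 FPKM in control and 1760 to 4490 FPKM in DHT mice, and 2 at day 15, with sums of 5220 to 6310 against 2770 to 4590 FPKM. Of 6 macrophage markers, 6 were higher at day 10 and 2 at day 15, with sums of 450 to 773 against 1140 to 1640 FPKM at day 10 and 734 to 1570 against 1510 to 3220 FPKM at day 15. Of 6 fibroblast markers, 2 were higher at each day, with sums of 4070 to 6230 against 7070 to 10800 FPKM and 4720 to 5790 against 7360 to 14000 FPKM. Of 8 basal epidermal markers, 1 was lower at day 10 and 2 at day 15. Of 4 stress keratins, 2 were lower at each day, with sums of 612 to 929 against 459 to 575 FPKM and 907 to 1090 against 490 to 772 FPKM. All 3 kidney markers tested were lower at day 10, with sums of 24.7 to 28.6 against 17.1 to 24.8 FPKM. None of the skin markers was filtered out as low, and their part in the members' differences was not tested.

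**Figure D2:**
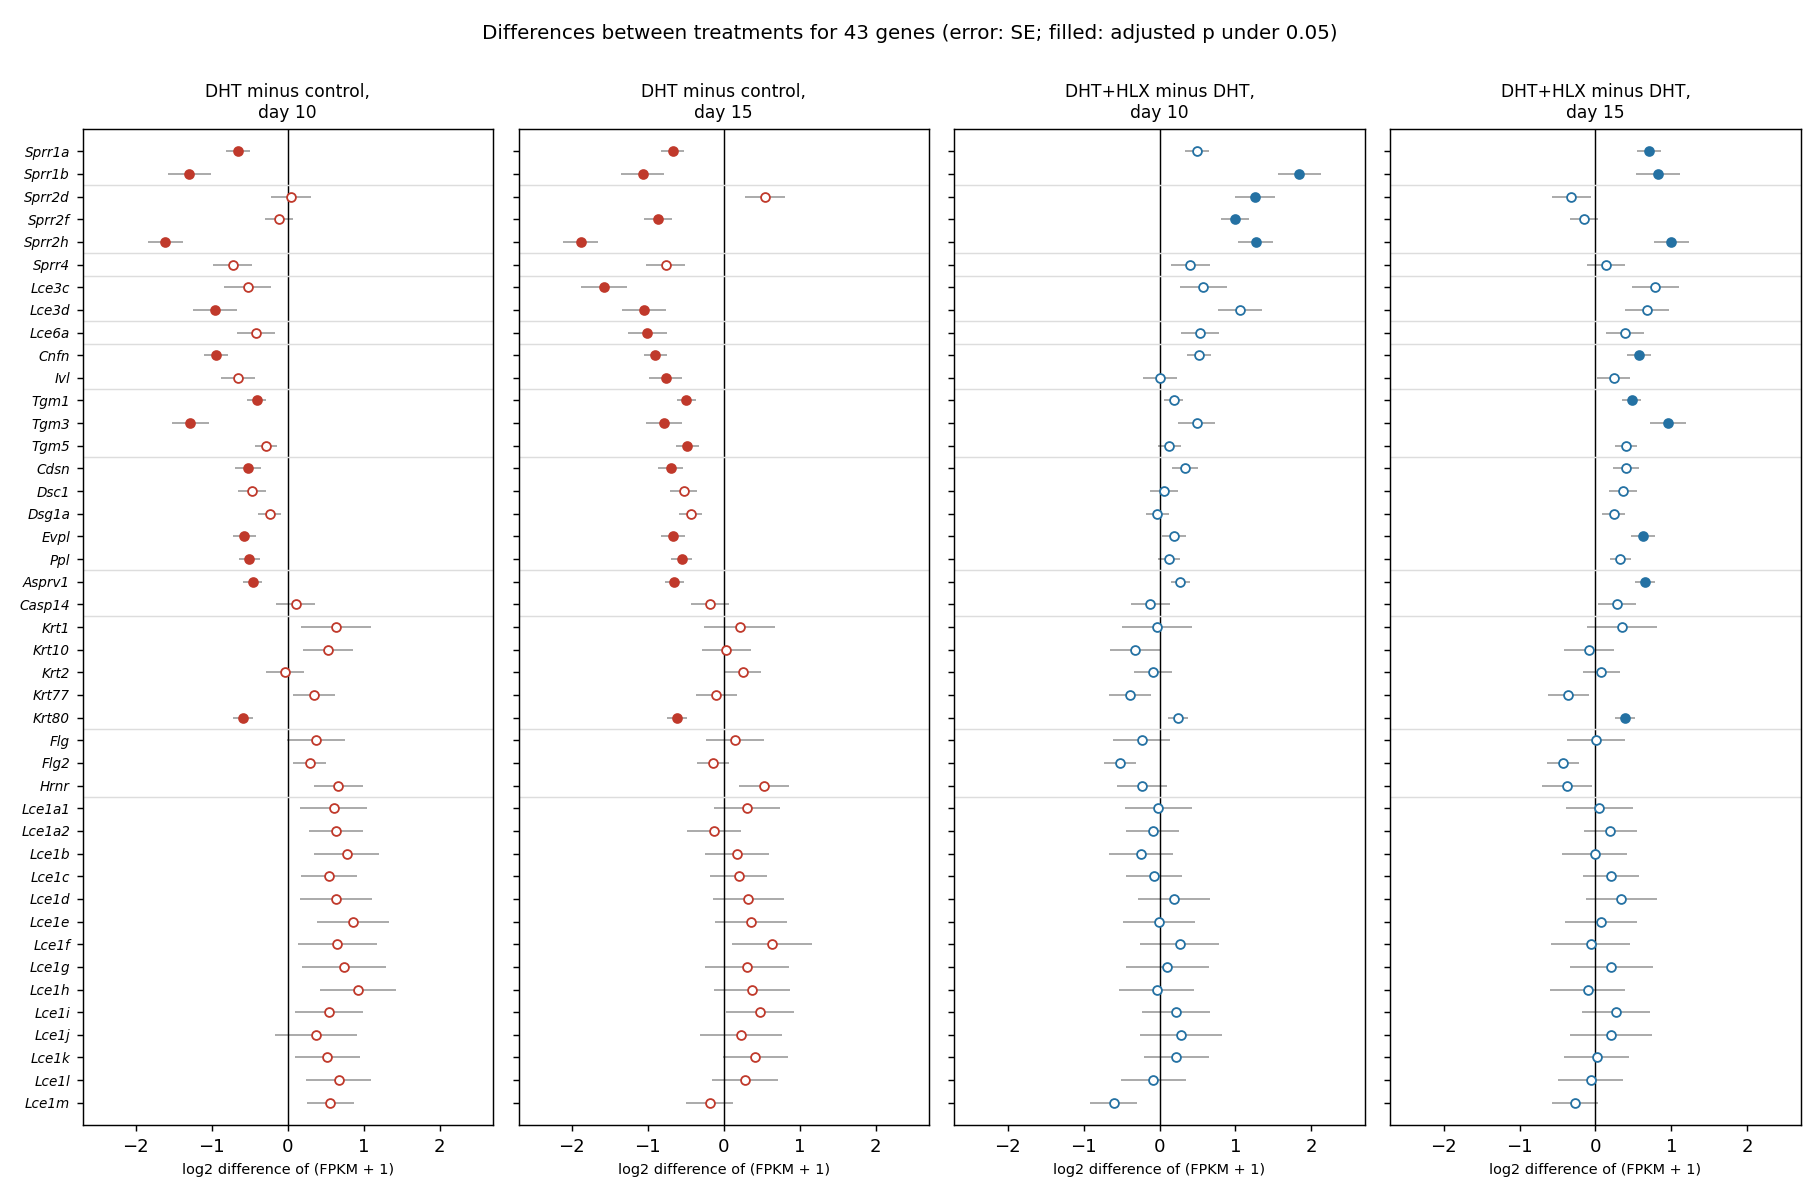
Log2 difference of FPKM + 1 (horizontal axes) of the 43 genes, grouped by family, for DHT minus control and DHT + HLX minus DHT at each day. Points are estimates, error bars SEs, and filled points passed an adjusted p of 0.05. The filled points lie left of 0 for 12 and 17 genes under DHT and right of 0 for 4 and 9 genes under HLX, and no Lce1 gene is filled.

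The second question was whether the topical extract altered these genes in DHT-injected mice. This comparison shares the DHT mice with the one above, so the values are given side by side and are not independent of it. At day 10, 4 members were higher in the DHT + HLX group than in the DHT group and none lower, where 0.092% of all genes were higher, 0.0997% lower and 0.192% either. At day 15, 9 members were higher and none lower, where 10.3% of all genes were higher and 9.32% lower, and 19.7% differed in either direction. The median of the 43 members was 0.13 at day 10 and 0.24 at day 15, and that of all genes -0.03 and -0.02. No member differed in its HLX effect between the days (limma, 0 called, smallest adjusted p of 0.0979, 4 members at an unadjusted p under 0.05, 0 called with voom), where 0.0614% of all genes had a higher and 0.0383% a lower effect at day 15.

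At day 10 the 4 genes were Sprr1b, Sprr2h, Sprr2f and Sprr2d. Sprr1b was 12.8, 39.8, 36.3 and 44.7 FPKM in DHT + HLX mice, where the DHT mice had 5.54 to 10.3 FPKM. Mouse 1 was lower than the other 3, and none of the 4 overlapped the DHT mice. The log2 difference was 1.84 (SE 0.284, adjusted p = 0.00311, limma). Sprr2h was 6.08, 9.16, 7.92 and 11.4 FPKM against 2.23 to 3.67 FPKM, a log2 difference of 1.27 (adjusted p = 0.0145, limma). Sprr2f was 0.686, 0.754, 1.68 and 1.7 FPKM against 0, 0, 0.216 and 0.129 FPKM, and Sprr2d was 0.541, 2.21, 3.61 and 3.69 FPKM against 0.227, 0.182, 0.308 and 0.728 FPKM, with mouse 1 within the DHT range for Sprr2d alone. Their log2 differences were 0.99 (adjusted p = 0.018) and 1.26 (adjusted p = 0.0491). Sprr2d passed the FPKM filter in 3 of these 4 mice and in 1 control mouse, and Sprr2f in 2 of these mice and 3 control mice of day 15, so that both entered the test through this group and their calls support no statement on the members. Of the members just below the filter, Sprr2i was 0.478, 1.74, 3.07 and 3.16 FPKM in the DHT + HLX mice of day 10 and at most 0.559 FPKM in the 20 other libraries. Sprr2e was 0.038, 1.1, 1.54 and 1.18 FPKM there and at most 0.541 FPKM in the others. Lce3a, the third gene just below the filter, was instead highest in control mice of day 15, at a mean of 1.07 FPKM. Its mean was 0.577 FPKM in DHT + HLX and 0.0469 FPKM in DHT mice of day 10.

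Sprr1b, Sprr2h, Sprr2f, Sprr2d, Sprr2i and Sprr2e were thus lowest in the same DHT + HLX mouse of day 10, number 1, and so were the Lce3 genes. Sprr1a and Sprr4 were lowest in mouse 3. Of the 4 calls, 1 remained with voom on recovered reads. Likewise 1 remained with the spread of these 8 mice alone, without the mice low in Y-linked transcripts, and without DHT mouse 2 or DHT + HLX mouse 3 or 4, and 2 remained without DHT mouse 3 or DHT + HLX mouse 2. Sprr1b kept its call in each of these except with the spread of the 8 mice alone (adjusted p = 0.102). Of 4 stress keratins, 3 were higher in the same comparison. Krt6b had means of 19.4 and 1.46 FPKM, Krt16 of 63.3 and 8.81 FPKM and Krt6a of 125.8 and 52.1 FPKM, and the 4 genes summed to 676 to 898 against 459 to 575 FPKM. Kidney markers were at 0.0577 to 0.136 FPKM in the DHT + HLX mice and 17.1 to 24.8 FPKM in the DHT mice of day 10, and the difference in members and that in kidney transcripts cannot be told apart.

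At day 15 the 9 genes were Sprr1a, Sprr1b, Sprr2h, Asprv1, Evpl, Tgm3, Tgm1, Cnfn and Krt80. Sprr2h was 27.6, 17.1, 22.1 and 23.9 FPKM in DHT + HLX mice against 8.77 to 16.7 FPKM in DHT mice, a log2 difference of 1.0 (SE 0.23, adjusted p = 0.00655, limma). Asprv1 was 326, 234, 272 and 253 FPKM against 156 to 199 FPKM, and the log2 difference was 0.65 (adjusted p = 0.00243). Both genes were separate between the groups. Sprr1a was 925, 849, 749 and 987 FPKM against 390 to 762 FPKM, with an overlap at 1 mouse of each group and a log2 difference of 0.71 (adjusted p = 0.00538). Tgm3 was 91.1, 66.9, 104 and 67 FPKM against 33.1 to 52.1 FPKM, a log2 difference of 0.96 (SE 0.24, adjusted p = 0.0107). Evpl rose by 0.62 (adjusted p = 0.0107), Tgm1 by 0.48 (adjusted p = 0.0125) and Cnfn by 0.57 (adjusted p = 0.0144) on the log2 scale. Lce3c was 2.94, 1.58, 3.49 and 2.29 FPKM against 0.854 to 1.31 FPKM, and did not pass at 0.79 (adjusted p = 0.0746). Involucrin had a log2 difference of 0.24 (adjusted p = 0.458). The Lce1 genes had a median difference of 0.06 and the filaggrin family of -0.37, with none of either called.

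These calls depended on the shared estimate of spread. With the spread taken from the 8 mice of this comparison alone, no member and no gene of the 13039 was called. Leaving out single mice gave 6 to 12 members. Without the 3 mice low in Y-linked transcripts the group was mouse 3 alone, so no count of calls is drawn from that fit. In mouse 3 Sprr1a was 749 FPKM, within the DHT range of 390 to 762 FPKM. Sprr2h was 22.1 FPKM there, against 8.77 to 16.7 FPKM in the DHT mice. Hair follicle markers moved in the same comparison: 7 of 7 inner root sheath markers were higher, with sums of 11300 to 13500 against 5620 to 9970 FPKM, and 9 of 9 hair shaft keratins, with sums of 5530 to 7640 against 2770 to 4590 FPKM. Of 6 macrophage markers, 2 were lower, with sums of 518 to 1940 against 1510 to 3220 FPKM, and 2 of 6 fibroblast markers, with sums of 2740 to 9220 against 7360 to 14000 FPKM. Their part in the members' differences was not tested.

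Against control mice, which the first comparison also used, few members differed in DHT + HLX mice. At day 10, 2 were higher and none lower, where 2.2% of all genes were higher, 1.04% lower and 3.24% either. They were Sprr2d, at a mean of 2.51 against 0.361 FPKM (log2 difference 1.30, adjusted p = 0.0103, limma), and Sprr2f, at 1.2 against 0.199 FPKM (0.88, adjusted p = 0.0142). Without the DHT + HLX mice of day 10, Sprr2d reached 1 FPKM in 1 library and Sprr2f in 3, fewer than the 4 required, so that both entered the test through the group where they are high and their calls support no statement on the members. In the same comparison 3 of 6 macrophage markers were higher, with sums of 1060 to 1380 against 450 to 773 FPKM, and 2 of 4 stress keratins, with sums of 676 to 898 against 612 to 929 FPKM. Krt17 made up most of these sums, with means of 586 against 675 FPKM. Krt16 had means of 63.3 against 10.7 FPKM, Krt6b of 19.4 against 0.981 FPKM and Krt6a of 126 against 98.3 FPKM. All 3 kidney markers tested were lower, and the part of these lists was not tested. At day 15, 1 member was lower and none higher, where 0.284% of all genes were lower and 0.0307% higher. This was Sprr2f, at 1.64, 1.63, 0.818 and 1.65 FPKM in control and 0.216, 0.215, 0.0443 and 0.286 FPKM in DHT + HLX mice. Without these control mice Sprr2f reached 1 FPKM in fewer than the 4 libraries required. Sprr2f thus entered this test, too, through the group where it is high, and this call supports no statement on the members. Its log2 difference was -1.02 (adjusted p = 0.0275), and it was no longer called with a pseudocount of 0.1, with voom or without any 1 of 5 mice (control 1, 2 or 4, DHT + HLX 1 or 2). Without DHT + HLX mouse 3, 3 members were called, where 2665 of the 13039 genes were called in place of 41. Sprr2h was 22.7 against 42.7 FPKM on average, with all 4 DHT + HLX mice below all control mice, and did not pass (log2 difference -0.88, adjusted p = 0.0869). At day 10 the 2 calls became 1 without control mouse 3 or 4 and 0 without DHT + HLX mouse 3. Over all genes the 423 calls became 124, 135 and 83 in these fits. With the spread of these 8 mice alone 8 members were called, of which 6 were lower, where 2229 of the 13039 genes were called. Median scaling and the removal of mice low in Y-linked transcripts each left 1. Cnfn was lower than in control mice in every DHT + HLX mouse at both days, with means of 117 against 158 and 148 against 186 FPKM, and did not pass (adjusted p = 0.107 and 0.244).

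The third comparison was between the days within each treatment. In control mice 3 members were higher at day 15 and 3 lower, where 1.48% of all genes were higher, 3.33% lower and 4.81% either. In DHT mice 1 was higher and 17 lower, where 1.62% of all genes were higher, 6.85% lower and 8.47% either. In DHT + HLX mice 3 were higher and 17 lower, where 2.11% of all genes were higher, 7.53% lower and 9.64% either. The median of the 43 members was -0.38, -0.78 and -0.81 in the 3 treatments, and that of all genes -0.07, -0.08 and -0.06.

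Most falls were in the Lce1 genes and the filaggrin family. Of the 14 Lce1 genes, 9 were lower at day 15 in DHT mice and 11 in DHT + HLX mice, and none was called in control mice. Their medians were -1.19 in control, -1.58 in DHT and -1.45 in DHT + HLX mice, and the sum of the 14 was 214, 398, 90.2 and 179 FPKM at day 10 and 103, 101, 69.1 and 82.3 FPKM at day 15 in the control mice, with an overlap at 1 mouse of day 10. In DHT mice the sum went from 181, 374, 292 and 458 FPKM to 88.6, 148, 58.9 and 122 FPKM. In DHT + HLX mice it went from 242, 331, 337 and 250 FPKM to 108, 144, 36.8 and 170 FPKM. The days did not overlap in the latter 2 treatments. Krt1 and Krt10 were lower at day 15 in DHT mice, by 1.61 and 1.18 on the log2 scale (adjusted p = 0.0378 and 0.0323, limma). Filaggrin itself (Flg) was 5.7, 14, 4.36 and 4.86 FPKM at day 10 and 1.94, 1.77, 2.42 and 1.53 FPKM at day 15 in control mice, and all 4 values of day 15 lay below all those of day 10. It was called lower in each treatment, with log2 differences of -1.37, -1.60 and -1.35. Casp14 was lower in each as well, with differences of -0.94, -1.22 and -0.81, and Hrnr and Flg2 in DHT and DHT + HLX mice. Krt2, a keratin of the upper suprabasal layers, was at most 1.38 FPKM in every library of day 15 and fell by 1.22 in control and 0.94 in DHT mice.

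A few members were higher at day 15. Sprr2h was higher at day 15 in each treatment, with log2 differences of 1.84 (adjusted p = 0.000148, limma) in control, 1.57 (adjusted p = 0.00115) in DHT and 1.31 (adjusted p = 0.00358) in DHT + HLX mice. In control mice Lce3c rose from 0.287, 1.27, 2.36 and 0.989 FPKM to 4.51, 4.34, 4.65 and 7.03 FPKM (log2 difference 1.52, adjusted p = 0.0119), and Sprr2f rose by 1.04. In DHT + HLX mice Tgm3 rose by 1.04 and Evpl by 0.54, while Sprr2d and Sprr2f fell by 1.45 and 0.86. Without the DHT + HLX mice of day 10, Sprr2d and Sprr2f reached 1 FPKM in fewer than the 4 libraries required. The same held for Sprr2f without the control mice of day 15. Both thus entered these tests through the group where they are high. Their calls between days, included in the counts above, support no statement on the members. The 2 tests of a change in treatment effect between the days also test these day effects in DHT against control and in DHT + HLX against DHT mice. They called no member. The day effects of DHT + HLX and control mice were not tested against each other.

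**Figure D3:**
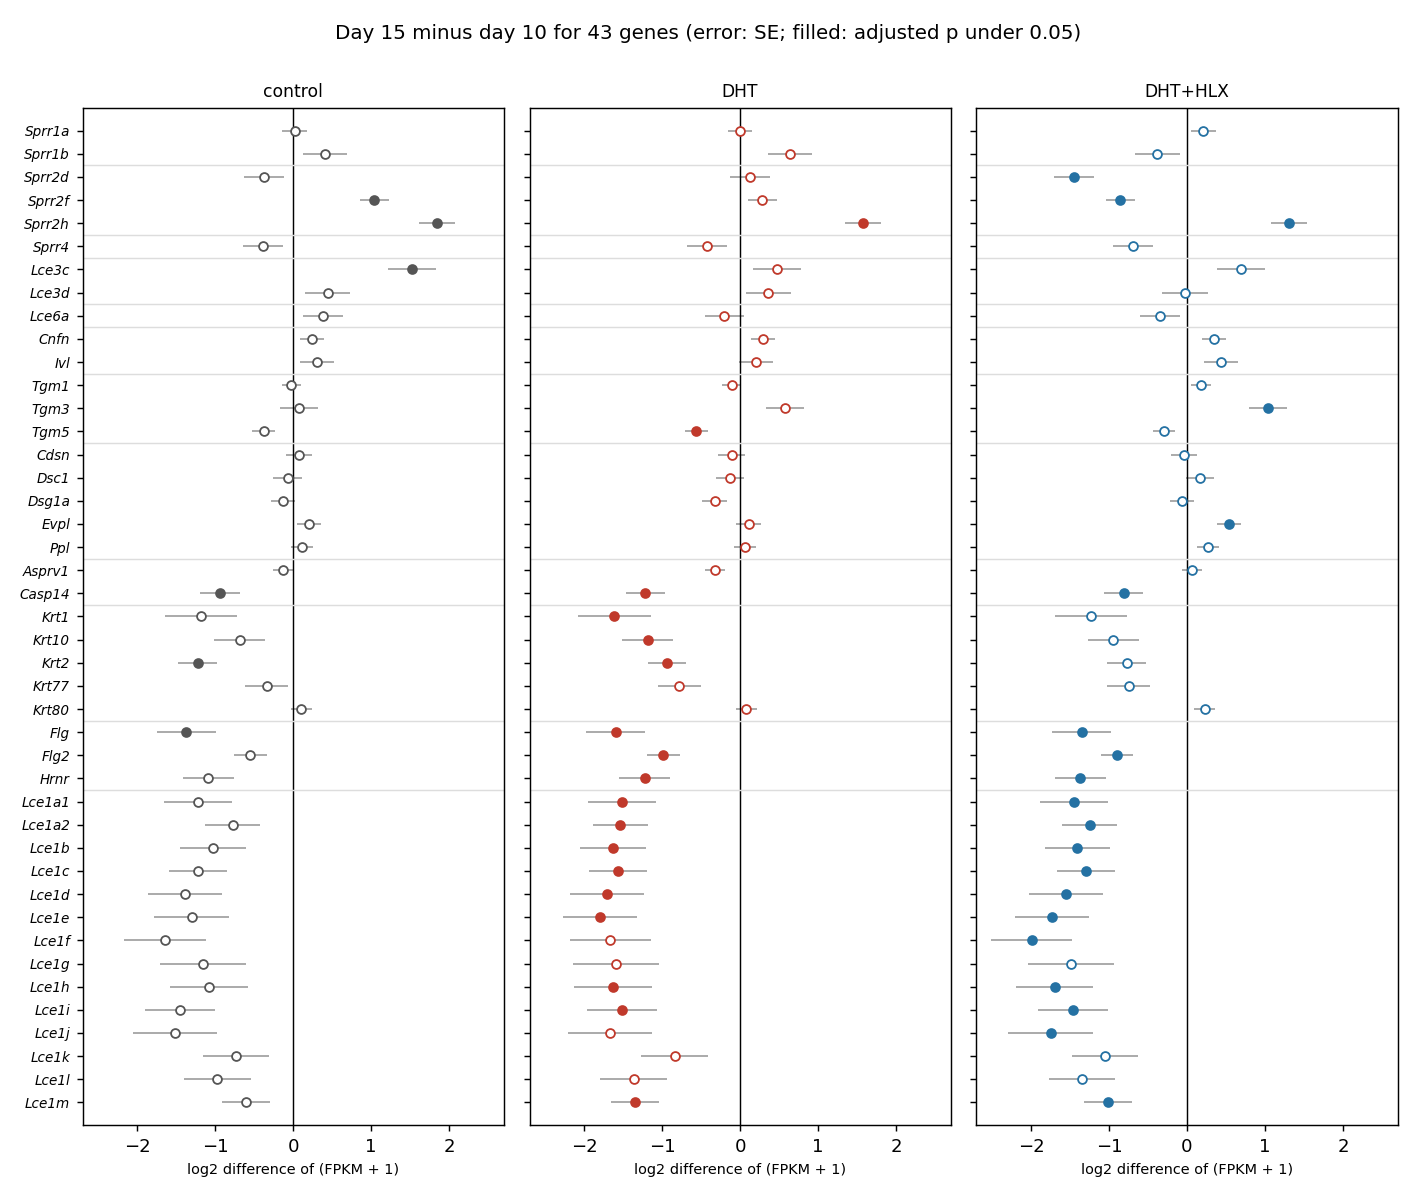
Log2 difference of FPKM + 1 between day 15 and day 10 (horizontal axes) of the 43 genes in control, DHT and DHT + HLX mice. Points are estimates, error bars SEs, and filled points passed an adjusted p of 0.05. Sprr2h lies right of 0 in each panel, and the Lce1 genes lie left of 0, filled for 9 genes in DHT and 11 in DHT + HLX mice.

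The day comparisons depended on single mice, for the members and over all genes. The 18 calls in DHT mice became 6, 9 and 4 without mouse 2, 3 or 4 of day 10 and Sprr2h alone without mouse 3 of day 15, and none stood with the spread of these 8 mice alone. Over all genes the 1104 calls became 391, 480 and 267, then 146, and 8 with that spread. The 20 calls in DHT + HLX mice became 10, 5, 9 and 8 without mouse 1, 2, 3 or 4 of day 10 and 6 and 8 without mouse 1 or 3 of day 15. The 1257 calls over all genes became 724, 425, 1223 and 614, and 487 and 2531. Scaling by median ratios left 10 of the 18 and 12 of the 20. The 6 calls in control mice became 12 without mouse 3 of day 10 and 2 without mouse 4 of day 15, where the 627 over all genes became 498 and 99. The control calls of Flg and Casp14 ended in 9 and 7 alternatives, at adjusted p up to 0.139 and 0.111 (limma). In control and DHT mice the day also separates libraries with kidney transcripts from those without, and these cannot be told apart. In DHT + HLX mice both days were at 0.136 FPKM or less.

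Markers of other skin cells moved with the day as well. Of 8 sebaceous gland markers, 2 were lower at day 15 in control, 4 in DHT and 5 in DHT + HLX mice. Their sums were 495 to 1040 FPKM at day 10 and 563 to 757 FPKM at day 15 in control mice, 537 to 836 and 336 to 533 FPKM in DHT mice, and 667 to 763 and 444 to 570 FPKM in DHT + HLX mice. Of 9 hair shaft keratins, none was called in control mice, while 3 were higher in DHT mice (sums of 1760 to 4490 and 2770 to 4590 FPKM) and 5 in DHT + HLX mice (3290 to 4090 and 5530 to 7640 FPKM). Of 7 inner root sheath markers, 1 was higher in DHT mice (5110 to 9010 and 5620 to 9970 FPKM) and 6 in DHT + HLX mice (7170 to 8830 and 11300 to 13500 FPKM). Of 8 basal epidermal markers, 1 was lower in DHT mice (1090 to 1510 and 722 to 1310 FPKM) and 5 in DHT + HLX mice (1440 to 1630 and 1000 to 1360 FPKM). Of 4 stress keratins, 1 was higher in control and 1 in DHT mice, and 2 were lower in DHT + HLX mice (676 to 898 and 744 to 861 FPKM). In DHT + HLX mice Krt17, most of that sum, went from a mean of 586 to 687 FPKM. Krt16 went from 63.3 to 12.3 FPKM, Krt6b from 19.4 to 0.847 FPKM and Krt6a from 126 to 92.3 FPKM. In addition, 1 of 6 macrophage markers was higher in control mice, and 2 of 6 fibroblast markers were lower in DHT + HLX mice (7900 to 9420 and 2740 to 9220 FPKM). Their part in the members' differences was not tested.

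Many of the members fell into sets that rose and fell together across libraries, which is a description over 24 libraries that share depth and tissue makeup. Sets were named after the values were seen. The 91 pairs of Lce1 genes had a median Pearson r of 0.951 on log2(FPKM + 1), and 0.904 after each group's mean was removed. Lce1 genes and Krt1, Krt10, Flg and Hrnr had a median r of 0.926 over 56 pairs (0.853 within groups). Ivl, Cnfn, Evpl, Ppl, Tgm1, Tgm3, Krt80, Cdsn, Dsc1 and Dsg1a had a median r of 0.793 among themselves (0.726 within groups). Between that set and the Lce1 genes the median was -0.45 over 140 pairs (-0.48 within groups), with a range from -0.72 to 0.08. Sprr1a, Sprr1b, Sprr2h and Sprr4 had a median r of 0.617 with that second set (0.383 within groups). Among themselves these 4 were less alike, with a median r of 0.591 (0.389 within groups) and a range from 0.05 to 0.739. With the Lce1 genes their median was -0.23, from -0.725 for Sprr2h to 0.456 for Sprr4. Sprr4 had a positive r with every Lce1 gene. The third DHT + HLX mouse of day 15 had the lowest Lce1a1 level of all libraries at 5.03 FPKM and a Lce1 sum of 36.8 FPKM, with involucrin at 83.6 FPKM, the highest of all.

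**Figure D4:**
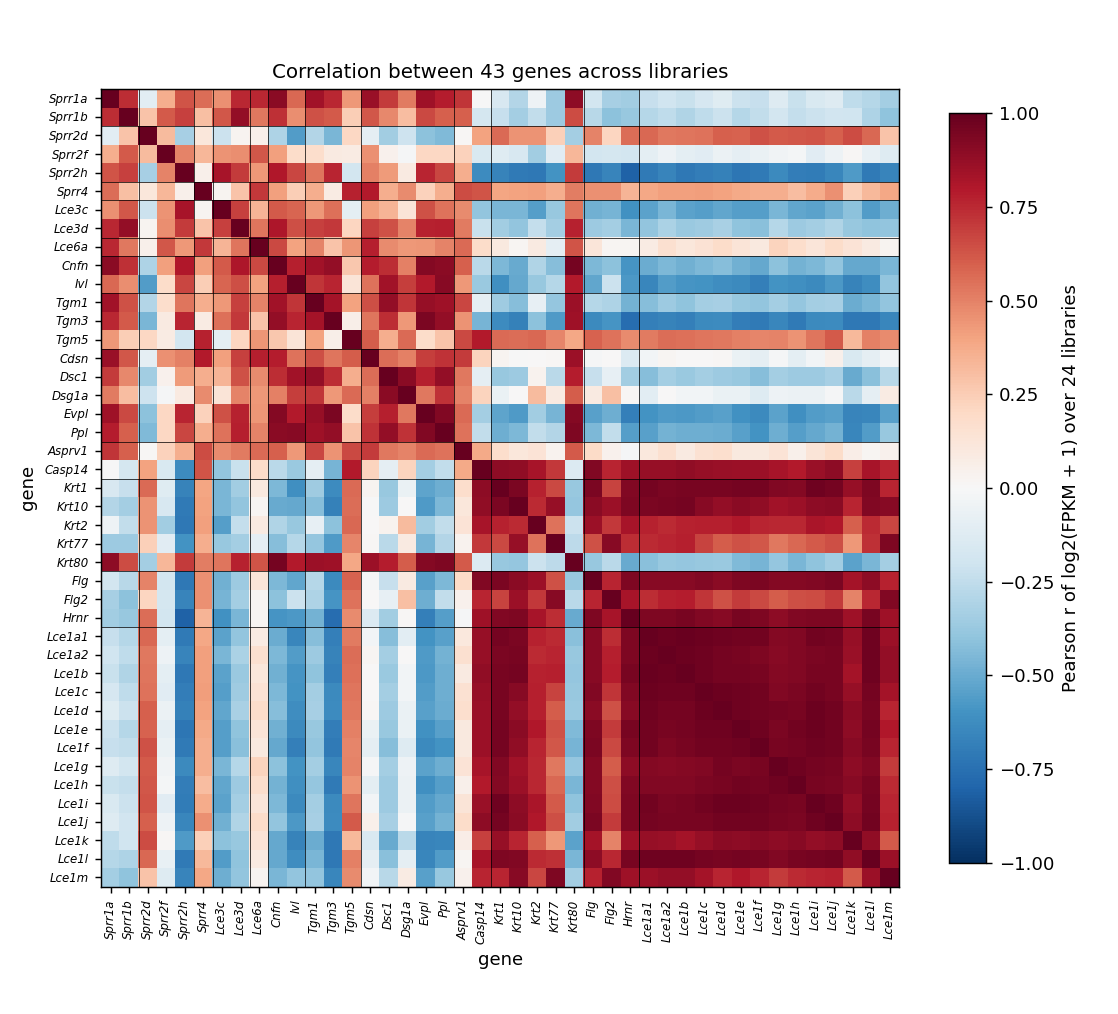
Pearson r of log2(FPKM + 1) across 24 libraries for each pair of the 43 genes, ordered by family on both axes, from -1 (blue) to 1 (red). The Lce1 genes form a block with a median r of 0.951 among themselves. Krt1, Krt10, Flg and Hrnr join it, with a median r of 0.926 to the Lce1 genes. Genes such as Cnfn, Evpl, Ppl and Tgm3 form another block.

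Other genes of the same pathway were followed in lists. Over all tested genes, 7.04% were lower under DHT at day 10 and 6.56% at day 15, and 10.3% were higher in DHT + HLX than in DHT mice of day 15. Of 21 further envelope and cornification genes tested, 6 were lower and none higher under DHT at day 10, and 8 lower and 1 higher at day 15. In DHT + HLX against DHT mice none was called at day 10, and 8 were higher and 1 lower at day 15. Gasdermin A (Gsdma), made in differentiating epidermis and follicle, had means of 87.6 FPKM in control and 52 FPKM in DHT mice of day 10, and of 54.7 in DHT and 86.7 in DHT + HLX mice of day 15. Its log2 differences were -0.74 (adjusted p = 0.00351, limma) and 0.69 (adjusted p = 0.00303). Lypd3 fell by 0.47 and 0.63 at the 2 days under DHT and rose by 0.57 in DHT + HLX mice of day 15, and Calml3, a calmodulin-like protein of the epidermis, fell by 0.39 and 0.57 and rose by 0.57. The day 10 call of Calml3 ended without control mouse 3 or DHT mouse 2 or 3, at adjusted p up to 0.0704. Loricrin, a main envelope protein listed as Lor, had differences of 0.53 and 0.02 under DHT (adjusted p = 0.318 and 0.973).

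Of 19 transcription factors of epidermal differentiation, 6 were lower at day 10 under DHT and 5 at day 15, and 4 were higher in DHT + HLX than in DHT mice of day 15. Ovol1 fell by 0.66 and 0.64, and Zfp750 by 0.49 at day 10 with a rise of 0.62 in DHT + HLX mice of day 15, while its day 15 difference under DHT, -0.37, did not pass (adjusted p = 0.0817). The call of Ovol1 ended without any 1 of 3 mice at day 10 and of 5 at day 15, at adjusted p up to 0.0813, and that of Zfp750 at day 10 without any 1 of 5 mice, at adjusted p up to 0.0977. Of 19 proteases, inhibitors and modifying enzymes, 6 were lower and 1 higher at day 10 and 8 lower and 1 higher at day 15 under DHT, and 6 were higher in DHT + HLX mice of day 15. Tmprss13 fell by 0.51 and 0.52, and the deiminases Padi1 and Padi3, which citrullinate filaggrin and trichohyalin, by 1.0 and 0.78 at day 10 and by 0.91 and 0.72 at day 15. St14 (matriptase, an activator of epidermal proteases) rose by 0.71 and Blmh, which breaks down filaggrin peptides, by 0.55 in DHT + HLX mice of day 15. Of 20 barrier lipid genes, 5 were lower at day 10 and 6 at day 15 under DHT, and 5 were higher in DHT + HLX mice of day 15. Nipal4, whose loss causes ichthyosis, fell by 0.52 and 0.55 and rose by 0.45, Abca12, the lamellar body lipid transporter, fell by 0.35 and 0.58, and Smpd1 (acid sphingomyelinase) rose by 0.56. The calls of the DHT + HLX against DHT comparison at day 15 in these lists ended, as for the members, with the spread of the 8 mice alone.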

How the data were processed

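Skin of 24 mice was profiled by RNA-seq of polyadenylated RNA, with 1 library per mouse. The authors deposited 1 table of FPKM values. The reads were processed with fastp, HISAT2 and HTSeq on the build GRCm39, per the submitters' processing notes; versions, the annotation and strand handling are not given in the sources used here. Because FPKM values of a gene are multiples of 1 read, whole reads were recovered for 18715 of 18715 genes above 0, with the largest deviation 0.000859 of a read, giving 37048896 to 41117262 reads per library.

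Groups came from the sample titles. Genes at 1 FPKM or more in at least 4 libraries were tested on log2(FPKM + 1), a pseudocount of 1, with limma 3.58.1 in R 4.3.3 (trended, robust variance moderation, 1 mean per group, all 24 libraries, 2-sided, Benjamini-Hochberg over 13039 genes, threshold 0.05), in 11 comparisons. The script was first tested on simulated data. Promoters were read from RefSeq (GRCm38.p6) and shared sequence from GENCODE transcripts of that build, so no coordinate was joined to the GRCm39 values.

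The members, the pathway lists and the marker lists were chosen with earlier results of these data known. Genes named were, per comparison, up to 6 called members with the smallest p in each direction, the 2 members with the highest mean per family, 2 just inside and 2 just outside the filter, and up to 3 called genes per pathway list. Other members are named to complete counts, after their values were seen. Alternatives were a pseudocount of 0.1, no filter, median-of-ratios scaling, only the groups compared, the replicate number as a block and each mouse left out. Chosen after seeing the data were voom on recovered reads and leaving out 4 DHT + HLX libraries low in Y-linked transcripts. Sebaceous, muscle and adipocyte markers (8, 6 and 6 genes) gave 0 calls between treatments; sebaceous markers gave 2, 4 and 5 between days. The result of 1 listed gene is not reported here.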

Additional observations from a re-analysis of the deposited data

Results flagged for a closer look

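Single mice that lay far from the other 3 of their group were looked for in 186 sets of 4 values (31 members in 6 groups), by Dixon's criterion. Of these sets, 10 held such a mouse, and chance gives about 1 in 20. Above the others of their group were Casp14 in control mouse 3 of day 15 at 21.6 FPKM, where the others had 16.2 to 16.8, and Flg in control mouse 2 of day 10 at 14 FPKM, where the others had 4.36 to 5.7. Krt80 and Tgm1 were both high in DHT mouse 1 of day 10, at 108 FPKM against 77.8 to 82.4 and at 37.5 FPKM against 26.3 to 28.2. Lce3c was 7.03 FPKM in control mouse 4 of day 15 against 4.34 to 4.65. Sprr2d was 0.0366 FPKM in control mouse 1 of day 15, with the others at 0, and Sprr2f was 0.708 FPKM in control mouse 1 of day 10, with the others at 0 to 0.0436. Sprr2h was 16.7 FPKM in DHT mouse 3 of day 15 against 8.77 to 9.74. Below the others lay Sprr2f in control mouse 3 of day 15, at 0.818 FPKM against 1.63 to 1.65, and Sprr2h in control mouse 2 of day 10, at 6.63 FPKM against 12.4 to 13.5.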

How the results depend on the processing

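With 4 mice per group and 1 tissue piece each, small differences of variable genes such as the Lce1 genes were not detectable. Of 1614 values of 112 named results under the alternatives, 1316 kept their direction and side of the threshold, 298 kept direction but no longer passed, and 0 reversed. All 112 were chosen because they were called, and the alternatives reuse the same mice. A reversal was therefore unlikely from the start, and the tally does not measure how often a result would recur in other mice. Counts of members called that moved by over 1.5 times follow, each beside its value as reported. With the spread of only the groups compared, DHT minus control at day 15 gave 10 in place of 17. DHT + HLX minus DHT then gave 1 in place of 4 at day 10 and 0 in place of 9 at day 15, and DHT + HLX minus control 8 in place of 2 at day 10 and 0 in place of 1 at day 15. Day 15 minus day 10 then gave 11 in place of 6 in control, 0 in place of 18 in DHT and 6 in place of 20 in DHT + HLX mice. Over all genes, DHT minus control at day 15 then gave 724 in place of 1408. DHT + HLX minus DHT gave 30 in place of 25 and 0 in place of 2563, and DHT + HLX minus control 2229 in place of 423 and 0 in place of 41. The days gave 1938, 8 and 440 in place of 627, 1104 and 1257. With voom, DHT + HLX minus DHT at day 10 gave 1 and DHT + HLX minus control at day 15 gave 0. Without the 4 libraries low in Y-linked transcripts, DHT + HLX minus DHT at day 10 gave 1. At day 15 that removal left 1 DHT + HLX mouse, so its counts are not given. Without those libraries, or with median-of-ratios scaling, DHT + HLX minus control at day 10 gave 1. That scaling gave 10 for the days in DHT and 12 in DHT + HLX mice, where no filter gave 13, and a pseudocount of 0.1 gave 0 for DHT + HLX minus control at day 15. The cause was not tested. With each mouse left out in turn, the counts ranged over 5 to 16 and 6 to 20 for DHT minus control at days 10 and 15, over 1 to 5 and 6 to 12 for DHT + HLX minus DHT, and over 0 to 3 and 0 to 3 for DHT + HLX minus control. For the days they ranged over 2 to 12 in control, 1 to 24 in DHT and 5 to 24 in DHT + HLX mice, and for the change of effect between days over 0 to 0 under DHT and 0 to 3 under HLX, the 3 without DHT + HLX mouse 1 of day 10. Mice of the same number deviated from their group means with r from -0.631 to 0.509 (median 0.047), so the numbers were not taken as pairs. With the replicate number as a block, the control mice had 10 members that differed between days in place of 6, and the other counts moved by less than 1.5 times (14 and 18 for DHT minus control, 22 and 23 for the days in DHT and DHT + HLX mice).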
